A study of Mus musculus with 92 samples.

Results

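The 92 animals of the series differed widely in Myh7, the myosin heavy chain of slow (type I) muscle fibres, in 1 muscle, the quadriceps. Animals were ranked by their Myh7 value, and the 23 highest and the 23 lowest were compared over all other genes, so that 46 of 92 animals entered the contrast. The slope of each gene on Myh7 over all 92 animals was used beside it. The 46 animals between the sets, which the contrast did not use, were fitted on their own. All animals were DOz mice, an outbred stock whose members are genetically distinct, and all had eaten chow throughout life. They were about 18 to 20 weeks old, and no treatment, allele or sex separates groups in the labels. Polyadenylated RNA of the whole muscle was sequenced, 1 library per animal, and the deposited values are on a log2 per-million scale. The sets were chosen by the measured Myh7 level and are not groups of the study, so the genes below are described as varying with Myh7 between animals.

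A muscle fibre builds its contractile apparatus from proteins that come in slow and fast forms. Slow fibres contain beta-myosin heavy chain from Myh7, slow troponins, ventricular-type myosin light chains and the calcium pump SERCA2, contract slowly, resist fatigue and rely on oxidative metabolism. Fast fibres contain the heavy chains of Myh2, Myh1 or Myh4, fast troponins and the pump SERCA1, and the mouse quadriceps consists mostly of them. Signalling through calcineurin and NFAT and the coactivator PGC-1alpha are known to support the slow programme, and Sox6 is known to favour the fast one.

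The slow heavy chain genes are known for the microRNAs inside their introns, which is why these sequences are shown. In the RefSeq tables for build GRCm38.p6, 3 microRNA hairpins lie inside the gene of a slow or cardiac heavy chain and on its strand. The hairpin of miR-208b (chr14:54975700-54975776, minus strand) lies inside Myh7, that of miR-208a (chr14:54949060-54949142, minus strand) inside Myh6, and that of miR-499 (chr2:155622880-155622958, plus strand) inside Myh7b. Capitals mark the seed, bases 2 to 8 of the mature strand.
mmu-miR-208b-3p: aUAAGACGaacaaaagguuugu
mmu-miR-208a-3p: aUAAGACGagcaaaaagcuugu
mmu-miR-499-5p: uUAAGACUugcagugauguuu
The miR-208 pair has the same seed, which only these 2 of 1679 mature microRNAs in the table carry, and the whole strands differ at 3 positions. The seed of miR-499 differs from it at 1 base. MicroRNAs are not measured in these libraries, so the values below are those of the host genes.

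Promoter windows of 300 bases, from 250 before to 50 after a RefSeq start, were found for 8 of 9 genes looked up: Myh7, Tnnc1, Tnni1, Tnnt1, Tpm3, Myl2, Myl3 and Myh6. Where a gene had 2 windows (4 genes), the one nearest the 5′ end of the GENCODE gene was taken. The windows of Tnni1, Myl2 and Myl3 lay 19987, 7762 and 21817 bases from that end, so the motif counts hold for these windows only. The windows of Myh7, of Tnnc1, which followed it most closely, and of its neighbour Myh6 are printed. These 3 carry the MCAT motif. The windows of Tnni1, Tnnt1, Tpm3 and Myl2, which are not printed, do not, although Tnnt1 and Tpm3 followed Myh7 slightly more closely than Myh6 did. Capitals mark the MCAT motif, searched as CATTCC on either strand.
Myh7, chr14:54994577-54994876, minus strand: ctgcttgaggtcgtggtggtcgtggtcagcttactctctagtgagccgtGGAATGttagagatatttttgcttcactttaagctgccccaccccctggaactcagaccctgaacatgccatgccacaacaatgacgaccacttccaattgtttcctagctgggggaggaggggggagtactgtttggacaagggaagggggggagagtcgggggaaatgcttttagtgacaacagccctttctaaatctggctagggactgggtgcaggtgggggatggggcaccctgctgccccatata
Tnnc1, chr14:31208062-31208361, plus strand: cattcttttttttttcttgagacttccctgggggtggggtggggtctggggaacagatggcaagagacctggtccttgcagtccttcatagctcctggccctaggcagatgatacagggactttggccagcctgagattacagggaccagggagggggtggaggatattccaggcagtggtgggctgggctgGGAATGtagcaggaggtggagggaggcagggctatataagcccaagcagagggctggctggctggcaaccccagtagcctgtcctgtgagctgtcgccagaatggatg
Myh6, chr14:54966558-54966857, minus strand: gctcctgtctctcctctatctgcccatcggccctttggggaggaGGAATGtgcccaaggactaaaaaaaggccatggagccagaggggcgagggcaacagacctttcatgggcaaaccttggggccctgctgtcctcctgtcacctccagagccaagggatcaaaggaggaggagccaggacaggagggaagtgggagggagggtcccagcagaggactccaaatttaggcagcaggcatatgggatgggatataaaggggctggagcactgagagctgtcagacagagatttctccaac
The MCAT letters, which TEAD factors are known to bind, were in 4 of the 8 windows (these 3 and Myl3), and in 14.7% of 32817 mouse windows of this length. The MEF2 letters CTANNNNTAG were in none of the 8 and in 3.69% of all windows. The CArG box, the site of serum response factor, was found in Myl3 alone of the 8 and in 1.63% of all. The estrogen-related receptor letters AAGGTCA were in Tpm3 alone and in 4.72% of all. The E-box letters CANNTG, which hold little information, were in all 8 windows and in 72.3% of all. No overlap between these motifs was excluded from the counts, both strands were read for each, and a match describes letters only.

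Myh7 (ENSMUSG00000053093, chr14:54970684-54994626, minus strand, GRCm38) ranged from 0.51 to 8.41 on the log2 per-million scale, with a mean of 4.53 ± 1.87 (SD, n = 92). In the 23 high animals it was at least 5.98, with a median of 6.67 and a maximum of 8.41. In the 23 low animals it ran from 0.51 to 3.28, with a median of 1.91. The animals between held 3.28 to 5.86, and no gap separated the sets from them: the lowest high animal stood at 5.98 and the next below at 5.86, and the highest low animal at 3.28 and the next above also at 3.28. These values chose the animals and are not tested.

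**Figure D1:**
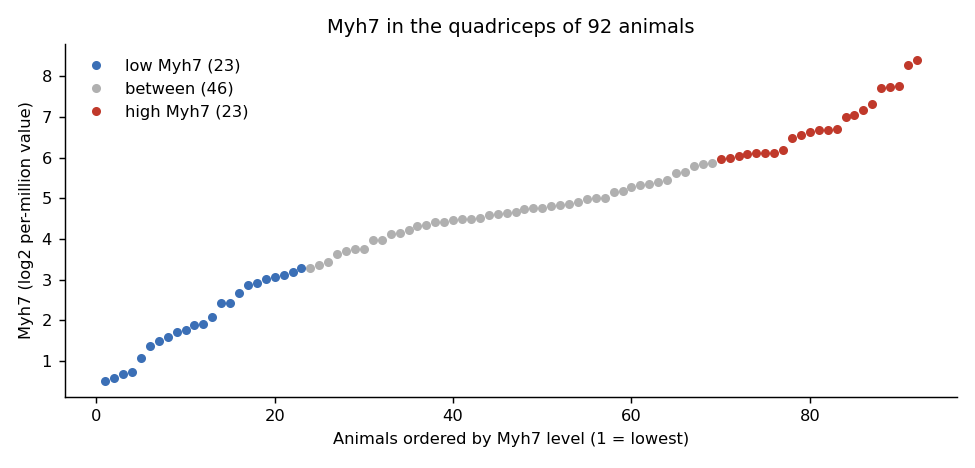
Myh7 level (y axis, log2 per-million value) of the 92 animals in ascending order (x axis, rank), 1 point per animal. Values rise from 0.51 to 8.41 without a break at the edges of the low (23), between (46) and high (23) sets.

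Even in the high animals Myh7 was a small part of the myosin message. Divided by exon length, Myh7 made up a median of 0.00379% of the summed Myh1, Myh2, Myh4 and Myh7 level in the low animals, 0.0251% in those between and 0.109% in the high ones, with a maximum of 0.354%. The muscle was therefore of fast type by message in every animal of either set. In a bulk sample, more fibres of a type and more message per fibre cannot be told apart.

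The summed linear values of the sets were close (median 1010370 high, 1003050 low). The per-million scale largely sets these sums, so they cannot show whether the libraries were alike. Genes at the floor, the lowest level reached, had a median of 6 per high animal (1 to 19) and 9 per low animal (3 to 16). The largest gene held a median of 5.97% of the sum in high and 6.47% in low animals, with overlapping ranges. The first 3 principal components shared at most 0.282% of their variance with Myh7. The numbers in the sample titles, whose meaning the labels do not give, form 5 runs with gaps of over 30. The run of the lowest numbers held 11 of the 23 low and 4 of the 23 high animals, and the middle run held 2 low and 8 high, so calls that were lost with these runs as a covariate are named below. Read depth is unknown, and the precision given is the spread between animals. Of 92 animals, 2 left the pattern shared by Myh7 and the other slow genes by over 3 residual SDs, title numbers 55 (in the low set) and 56 (between). They are described at the end, with counts that leave them and 1 further animal out.

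Over all genes but Myh7, the high and low animals differed in a small set of genes, of which the 8 with the largest differences were 6 slow sarcomere genes, the cardiac heavy chain gene Myh6 and the calcium pump gene of slow fibres. Of 13440 genes, 23 were higher in the high set at an adjusted p under 0.05 (limma, Benjamini-Hochberg over all genes) and 0 were lower, which is 0.171% of genes. Without adjustment, 357 genes (2.66%) were higher and 292 (2.17%) lower at p under 0.05, together 4.83% of genes. The slope over 92 animals called 22 rising genes (0.164%) and 1 falling gene (0.00744%), again 0.171% in all, and 20 genes (0.149%) were called both ways. Among the 46 animals between, 6 genes were called (0.0446%), all of them among the 23: Tnnc1, Tpm3, Tnnt1, Tnni1, Myl2 and Atp2a2. All 23 genes had a positive slope there, against 50.2% of all genes, and 10 of the 23 had an unadjusted p under 0.05, as 4% of all genes did. Myh7 and the other genes come from the same libraries, so an error that touches several slow genes of a library at once would enter both sides of these fits.

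The calcium sensor of the thin filament in slow and cardiac muscle, Tnnc1 (ENSMUSG00000091898, chr14:31208312-31211729), separated the sets fully. Its values ran from -1.51 to 2.47 with a median of 0.01 in the low animals, and from 2.99 to 6.09 with a median of 4.28 in the high ones. The difference was 4.24 ± 0.24 (SE; limma adjusted p = 9.11e-19), a fold of 18.9. It rose by 0.85 log2 units per log2 unit of Myh7 over all animals, and by 0.92 among the 46 between. The inhibitory subunit of slow fibres, Tnni1 (ENSMUSG00000026418, chr1:135779434-135810989), ran from -1.18 to 4.22 (median 0.01) in the low set and from 2.66 to 5.81 (median 3.90) in the high set. The sets overlapped through 1 low animal, number 55, and the other 22 low animals were at or below 1.45. The difference was 3.96 ± 0.28 (SE; limma adjusted p = 3.78e-15). The slow tropomyosin-binding subunit, Tnnt1 (ENSMUSG00000064179, chr7:4504570-4516382), lay between 0.88 and 3.30 (median 1.999) in low and between 4.53 and 7.29 (median 5.55) in high animals, with no overlap. It differed by 3.62 ± 0.20 (SE; limma adjusted p = 2.64e-19).

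Other parts of the slow filament followed. Tpm3 (ENSMUSG00000027940, chr3:90072649-90100902), the slow tropomyosin gene, which also makes forms used outside muscle, ran from 3.21 to 4.59 (median 3.82) in low and from 5.38 to 8.21 (median 6.22) in high animals. The sets did not overlap, and the difference was 2.53 ± 0.17 (SE; limma adjusted p = 3.34e-16). Reads of Tpm3 are uncertain to assign, since 26.9% of its 31-base words in the GENCODE M21 transcripts also occur in Tpm3-rs7. The regulatory light chain of slow and ventricular myosin, Myl2 (ENSMUSG00000013936, chr5:122100951-122113472), had low-set values of 0.03 to 4.33 (median 2.47) and high-set values of 4.31 to 7.10 (median 5.38). The sets touched in 1 animal of each, and the difference was 3.09 ± 0.25 (SE; limma adjusted p = 3.77e-13). The essential light chain Myl3 (ENSMUSG00000059741, chr9:110741861-110769798) was the most variable of these genes in the low animals, from 0.43 to 5.36 (median 3.39), against 4.61 to 7.74 (median 5.88) in the high ones. There, 3 low animals reached the range of the high set. Its difference was 2.80 ± 0.32 (SE; limma adjusted p = 1.72e-08), and its correlation with Myh7 was the weakest of these slow genes.

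The alpha-myosin heavy chain Myh6 (ENSMUSG00000040752, chr14:54941921-54966927, minus strand), known as the main heavy chain of the adult mouse heart and the neighbour of Myh7, ran from -1.39 to 2.63 (median 1.34) in low and from 3.27 to 7.62 (median 4.79) in high animals. The sets did not overlap and differed by 3.93 ± 0.29 (SE; limma adjusted p = 9.01e-15). This gene is not independent of the ranking, because 29.1% of its 31-base words occur in Myh7 and 22.6% of those of Myh7 occur in Myh6, so reads can be credited to either. Of 10 listed heart markers, Tnnt2 and Myl4 were in the table and the other 8 were not analysed here. Both are also known from embryonic and regenerating skeletal fibres, so they cannot mark heart tissue here. Their summed level had a median of 4.88 on the linear per-million scale in the high and 3.98 in the low animals, with maxima of 118.6 in animal 260 and 48.98 in animal 55, described at the end. Both genes averaged higher in the high set, 0 passed in limma and 1 (Myl4) had an unadjusted p under 0.05.

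The calcium pump of slow fibres, Atp2a2 (SERCA2, ENSMUSG00000029467, chr5:122453513-122502225), is also expressed outside muscle, and its message started from a higher level. It ran from 5.53 to 6.49 (median 6.03) in the low animals and from 6.60 to 8.55 (median 7.46) in the high ones. The sets did not overlap, and the difference was 1.60 ± 0.11 (SE; limma adjusted p = 3.78e-15), a fold of 3.03. Tnnc1, Myh6, Tnnt1, Tpm3 and Atp2a2 were the 5 genes whose sets did not overlap, 0.0372% of all genes.

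**Figure D2:**
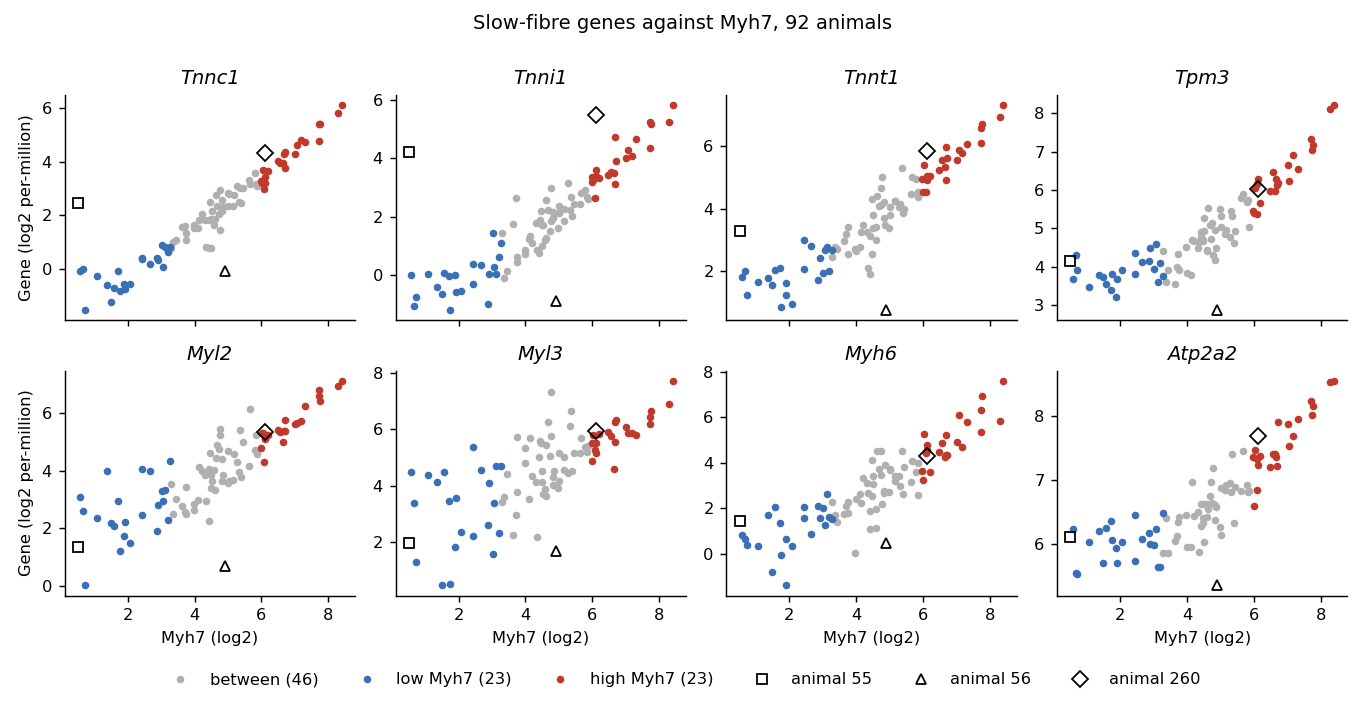
Level of 8 slow-fibre genes (y axes, log2 per-million) against Myh7 (x axes, log2 per-million) in 92 animals, coloured by Myh7 set, with open symbols for animals 55, 56 and 260. Over all 92 animals each gene climbs with Myh7, Tnnc1 most tightly (r = 0.927), and 6 of the 8 were also called among the 46 between (not Myh6 or Myl3). Animal 55 lies above and animal 56 below that course for the 3 troponins.

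Counted per animal, which describes genes chosen for following Myh7 and is no test of them, the 8 genes gave the following picture. In the high set, 22 of 23 animals had all 8 above the median of the 92 animals, and the remaining one had 7. In the low set, 18 of 23 had none above it and the most was 2. The animals between held every mixture, 10 with all 8 above and 10 with none. Each of the 8 genes had a positive slope on Myh7 in 5 of 5 title-number runs, which are parts of the same 92 animals and no separate test. In the annotation, Tnnc1 overlaps Nisch and Myl3 overlaps Pth1r on the opposite strand, and Myh7 overlaps antisense genes, so some of their reads could be credited to a partner if strand was not used.

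Ranked by likeness to Myh7 over the 92 animals, the first 8 genes were those described above. Pearson's r was 0.927 for Tnnc1 (Spearman's rho 0.940), 0.892 for Tnnt1, 0.868 for Tpm3, 0.865 for Myh6, 0.850 for Tnni1, 0.841 for Atp2a2, 0.840 for Myl2 and 0.716 for Myl3. After them the values dropped to 0.577 for Lgi1 and 0.550 for Rspo3. These are descriptions over animals whose libraries supply both values. Leaving out the 2 animals farthest from the median Myh7 moved r to between 0.583 and 0.960 for the 10 genes.

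Of the 16 genes listed as slow sarcomere, all 16 were higher in the high set and 8 passed (limma adjusted p under 0.05, against 0.171% of all genes), with a median difference of 0.93 against -0.00017 over all genes. Beside the 6 described, these were Myoz2 and Myh7b. Myoz2, calsarcin-1 of the slow Z-disc, ran from 3.26 to 6.20 (median 4.53) in low and from 5.21 to 6.63 (median 5.82) in high animals, so that 7 low animals reached the high range. It differed by 1.16 ± 0.18 (SE; limma adjusted p = 3.56e-05). Myh7b, the ancient slow-tonic heavy chain and host of miR-499, differed by 1.12 ± 0.26 (SE; limma adjusted p = 0.0423) at a low level, from -1.65 to 2.01 in the low and -0.25 to 2.57 in the high set, with wide overlap. Its call was lost in 5 of the 10 alternatives that tested it. Among them were the title-number runs as a covariate (1.16, limma adjusted p = 0.116) and marker scores (0.96, limma adjusted p = 0.135). Myom3, an M-band protein, passed in the slope only (limma adjusted p = 0.0479 against 0.0744 between the sets). Lmod2 differed by 0.45, Actn2 by 0.36 and Mybpc1 by 0.27, and none of these 3 passed (limma adjusted p = 0.601, 0.655 and 0.854).

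Of the 16 genes listed as fast sarcomere, 0 passed in either test, and 0 had an unadjusted p under 0.05 between the sets in limma. Their differences ran from -0.12 to 0.19 with a median of -0.01, and the 95% intervals of all 16 stayed within -0.31 and 0.43. The list included the fast troponins Tnnc2, Tnni2 and Tnnt3, the light chains Mylpf and Myl1 and alpha-actinin-3 (Actn3). It also held genes such as Acta1, Neb and Ttn, which are not particular to fast fibres. For the fast calcium genes Atp2a1, Casq1 and Pvalb, 0 of 3 passed, 0 had an unadjusted p under 0.05 and the intervals stayed within -0.20 and 0.14.

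**Figure D3:**
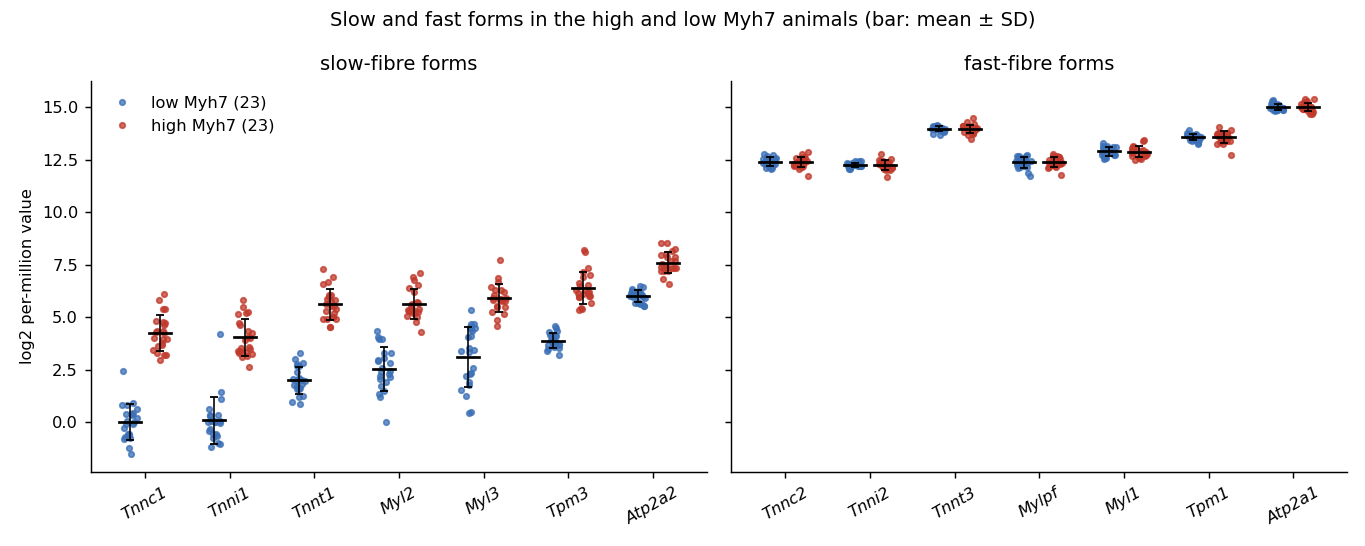
Levels (y axis, log2 per-million) of 7 slow forms (left) and their fast counterparts (right) in the 23 low and 23 high Myh7 animals, 1 point per animal, bars mean ± SD. The slow forms are higher in the high set, by 1.60 for Atp2a2 to 4.24 for Tnnc1, while the ranges of the fast forms overlap widely between the sets and lie far above the slow ones.

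Paired with their fast forms per exon length, the slow genes went from traces to small shares. Tnnc1 was a median of 0.0155% of Tnnc1 plus Tnnc2 in the low and 0.256% in the high animals, Tnni1 0.00842% and 0.116% of the Tnni pair, and Tnnt1 0.0179% and 0.202% of its sum with Tnnt3. The light chains stood higher, with Myl3 at 0.142% and 0.872% of Myl3 plus Myl1 and Myl2 at 0.0634% and 0.434% of Myl2 plus Mylpf. Atp2a2 was 0.113% and 0.332% of the SERCA pair. In the animal with the highest share, Tnnc1 reached 0.857% and Tpm3 2.23% of its sum with Tpm1. The largest share of any of these pairs in an animal was 2.66%, for Myl3. Whether the deposited values were already divided by length is not stated, and without that division the medians were 0.0202% and 0.278% for Tnni1, 0.116% and 0.794% for Myl2 and 0.197% and 0.579% for Atp2a2.

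Among the other heavy chains, 2 of 8 listed genes passed, Myh6 and Myh2 (0.171% of all genes). Myh2, the heavy chain of the oxidative fast (IIA) fibre, ran from 10.12 to 11.72 (median 10.92) in low and from 11.003 to 12.11 (median 11.40) in high animals. All 23 high animals lay above the median of the low set, 9 low animals reached the range of the high set, and the difference was 0.51 ± 0.10 (SE; limma adjusted p = 0.00811). The call was lost with the title-number runs as a covariate (0.46, limma adjusted p = 0.163) and with marker scores as covariates (0.51, limma adjusted p = 0.0692). Myh2 shares 23.9% of its 31-base words with Myh1, so part of its reads is uncertain. Myh4, the heavy chain of the fastest (IIB) fibre, differed by -0.16 and Myh1, of the IIX fibre, by 0.11, and neither passed (limma adjusted p = 0.998 for both). The perinatal chain Myh8 differed by 1.16 (limma adjusted p = 0.998), with values of 3.65 to 9.71 in the low and 3.45 to 9.44 in the high animals.

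Expressed as shares of the 3 adult fast heavy chains per exon length, which leave Myh7 out, Myh2 was 1.43% to 4.25% (median 2.28%) in the low and 2.60% to 5.36% (median 3.38%) in the high animals. The means were 2.41% ± 0.81 and 3.61% ± 0.80 (SD, n = 23 each), a difference of 1.199 percentage points (two-sided permutation p = 5e-05, adjusted over the 3 shares 0.00015). Myh4 took 90.4% ± 2.88 in the low and 87.8% ± 4.07 in the high animals, lower by 2.62 points (permutation p = 0.0123, adjusted 0.0184). When animals were permuted within title-number runs, Myh2 kept its call (adjusted permutation p = 0.00075) and Myh4 did not (adjusted permutation p = 0.0537). Myh1 was 7.15% ± 2.24 and 8.57% ± 3.73, a difference of 1.42 points within the spread between animals (permutation p = 0.129, adjusted 0.129).

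**Figure D4:**
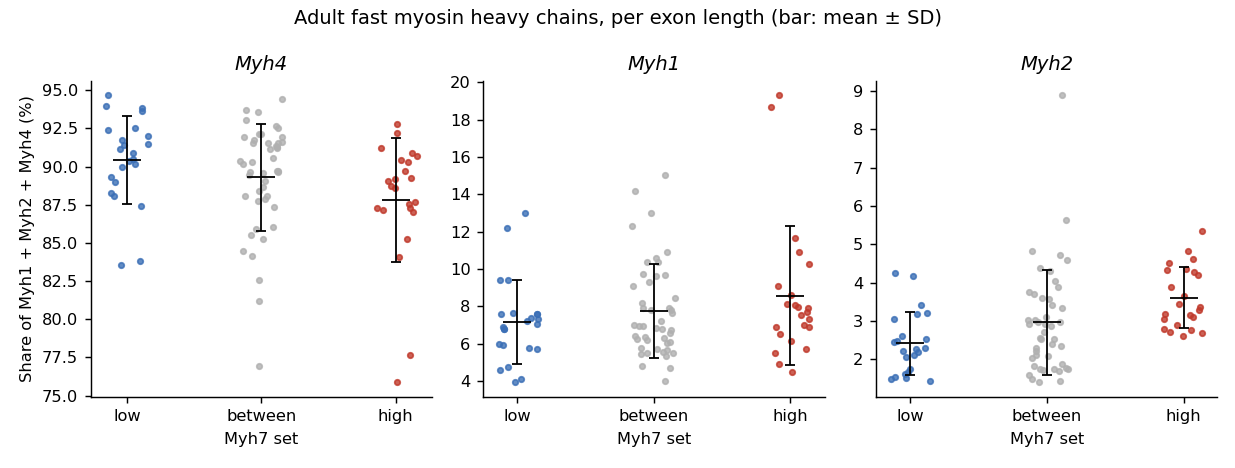
Share (y axes, %) of Myh4, Myh1 and Myh2 in the sum of the 3 adult fast heavy chains, per exon length, by Myh7 set (x axes), 1 point per animal, bars mean ± SD. The Myh2 share is higher in the high than in the low set, 3.61% against 2.41% on average, with overlapping ranges, and the y axes do not start at 0.

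Of the slow calcium-handling genes, Atp2a2 passed and the other 2 measured did not. Casq2, the cardiac and slow calsequestrin, differed by 0.83 ± 0.21 (SE; limma adjusted p = 0.115), from 1.95 to 4.70 in low and 2.89 to 6.71 in high animals. Phospholamban (Pln), the inhibitor of SERCA2, differed by 0.46 ± 0.31 (SE; limma adjusted p = 0.998), and sarcolipin was not analysed here. Among 20 genes of calcium release and coupling common to all fibres, such as Ryr1 and Cacna1s, 0 passed in limma, 0 had an unadjusted p under 0.05, and the differences lay between -0.12 and 0.07.

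Regulators of fibre type showed no call. Of 20 genes of calcineurin, NFAT and MEF2, 0 passed in limma and 0 had an unadjusted p under 0.05, with a median difference of -0.03. Of 15 genes around PGC-1alpha and the estrogen-related receptors, 0 passed in limma and 2 had an unadjusted p under 0.05, both higher (2.66% of all genes): Esrrb at 0.49 (limma adjusted p = 0.489) and Esrrg at 0.30 (0.618). Among 22 fibre-type regulators that include Sox6 and Tead1, 0 passed in limma and 2 had an unadjusted p under 0.05, both higher (2.66% of all genes). These were Prox1, known to favour the slow programme, at 0.53 (limma adjusted p = 0.601) and the TEAD cofactor Vgll2 at 0.34 (limma adjusted p = 0.292). Messages of regulators can differ from their activity, which was not measured.

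Oxidative genes were mostly higher by small amounts. Of 38 genes of the citric acid cycle and respiratory chain, 35 were higher in the high set with a median difference of 0.07, and 1 passed (0.171% of all genes). That gene was Idh2, mitochondrial isocitrate dehydrogenase, which ran from 5.43 to 7.16 (median 6.60) in low and from 6.46 to 7.80 (median 7.04) in high animals. The sets overlapped widely, and the difference was 0.64 ± 0.12 (SE; limma adjusted p = 0.00211). Of 25 genes of oxygen storage and fatty acid use, 22 were higher with a median of 0.11, 9 had an unadjusted p under 0.05, all higher (2.66% of all genes), and 0 passed in limma. The fatty acid carrier Fabp3 differed by 0.37 (limma adjusted p = 0.601) and myoglobin (Mb) by 0.30 (0.948). Over all genes 6709 of 13440 were higher, and genes of a respiratory complex vary together, so the counts describe the lists.

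In glycolysis and glycogen use, 1 of 33 genes passed (0.171% of all genes), and the median difference was -0.01. That gene was Ldhb, the heart-type lactate dehydrogenase subunit of oxidative fibres, at 5.28 to 7.26 (median 6.16) in low and 6.22 to 7.76 (median 6.90) in high animals. Its ranges overlapped, and it differed by 0.69 ± 0.13 (SE; limma adjusted p = 0.0027). Per exon length it was 6.60% of the Ldha plus Ldhb message in the low and 10.2% in the high animals (medians), and 3.24% and 5.11% without division by length. Ldhb is uncertain, because 33% of its 31-base words occur in Gm5514. Its call was lost with marker scores as covariates (0.63, limma adjusted p = 0.0617).

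Among 25 stress and Z-disc genes, 1 passed in limma (0.171% of all genes), Fhl1, a LIM-domain protein of the sarcomere, with 7.87 to 9.99 in low and 8.79 to 10.67 in high animals. Its difference of 0.58 ± 0.13 (SE; limma adjusted p = 0.0423) lost its call in 5 of 11 alternatives. Among them were the title-number runs as a covariate (0.52, limma adjusted p = 0.394). Of the 25, 16 were higher (6709 of 13440 over all genes), and 5 higher (2.66% of all genes) and 1 lower, Hspb8 (2.17%), had an unadjusted p under 0.05. Csrp3, the muscle LIM protein, differed by 0.99 (limma adjusted p = 0.481), Ankrd2, a stretch-responsive repeat protein of slow fibres, by 0.93 (0.19), and the small heat shock protein Hspb7 by 0.53 (0.369). Of 17 neuromuscular and denervation genes and 15 growth-control genes, 0 passed in limma in either list, and 3 in all had an unadjusted p under 0.05, each lower in the high set (2.17% of all genes).

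**Figure D5:**
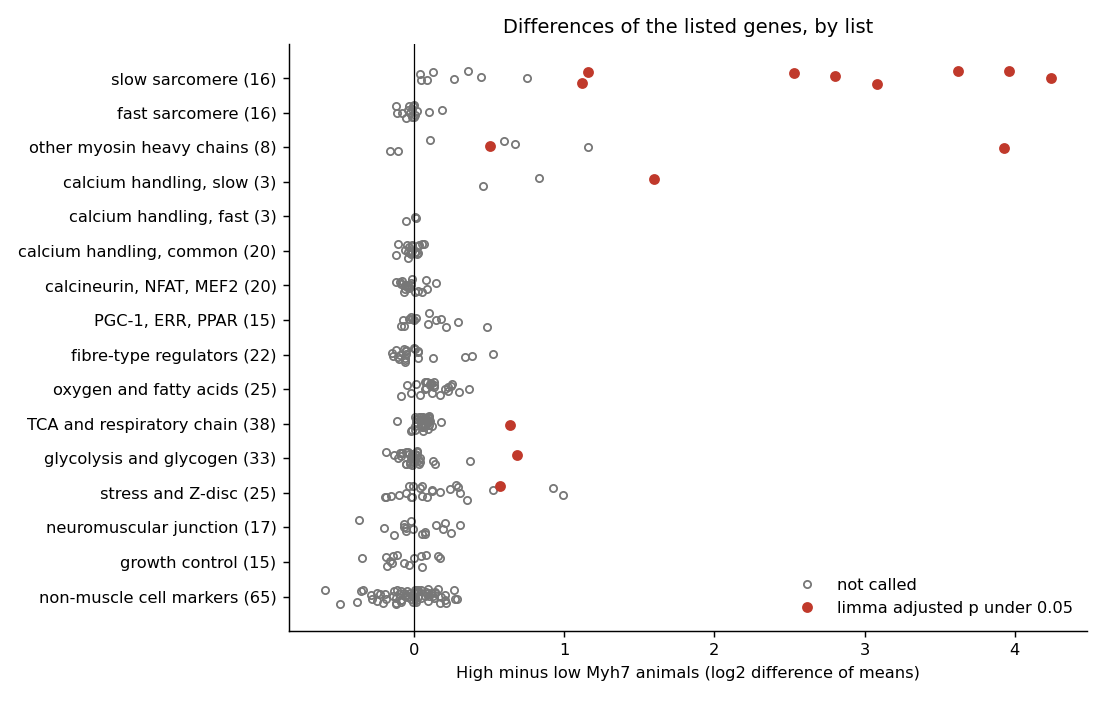
Difference between high and low Myh7 animals (x axis, log2) for each gene of the muscle lists and of the non-muscle markers together (y axis, with the number measured), filled where limma's adjusted p was under 0.05. The calls gather in the slow sarcomere list (8 of 16), and the 16 genes of the fast sarcomere list lie between -0.12 and 0.19.

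Outside the lists, the genes named by size among those called in both fits were Lgi1, Gm50221, Gm5532, Pdlim1 and Smtnl1, and Rspo3 was named by its likeness to Myh7. Lgi1, a secreted protein known from neurons, ran from -1.71 to 2.31 (median 0.25) in low and from 1.02 to 2.56 (median 1.81) in high animals. All 23 high animals exceeded the low median, and the difference was 1.40 ± 0.21 (SE; limma adjusted p = 2.56e-05). Smtnl1, a smoothelin-like protein of muscle, differed by 0.60 ± 0.11 (limma adjusted p = 0.00105), with 4.43 to 6.02 in low and 5.33 to 6.59 in high animals. Pdlim1, a PDZ and LIM protein that binds alpha-actinin, differed by 0.70 ± 0.14 (limma adjusted p = 0.00811), a call lost with the title-number runs as a covariate (limma adjusted p = 0.176) and with marker scores (0.0871). The noncoding Gm5532 differed by 0.94 and Gm50221 by 1.01 (limma adjusted p = 0.000794 and 0.00105), and the call of Gm50221 was lost with the runs (limma adjusted p = 0.0677) and with marker scores (0.0607). Gm50221 is antisense to Alpk2, and whether reads were assigned by strand is not given in the sources used here. Rspo3, a secreted amplifier of Wnt signalling, differed by 1.15 (limma adjusted p = 0.000794). The remaining calls fell outside the naming rule and were picked after their values were seen. Lrrc52 differed by 1.21, Fhl2 by 0.93 and Dusp18 by 0.59, and all 3 calls were lost with the title-number runs as a covariate (limma adjusted p = 0.319, 0.582 and 0.395). Their differences were then 1.07, 0.68 and 0.50. Homer2 rose and Arf3 fell by the slope only, Arf3 by 0.06 log2 units per log2 unit of Myh7 (limma adjusted p = 0.0327).

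Other cell types did not follow the ranking at a level these data could call. Of 65 markers of fat, macrophages, endothelium, fibroblasts, Schwann cells, smooth muscle, tendon, blood and satellite cells, 0 passed in limma, 2 had an unadjusted p under 0.05 (Esam lower, Pax7 higher, against 4.83% of all genes), and the median difference was -0.01. Some lists leaned one way without a call: all 10 adipocyte markers (median -0.23) and all 5 blood markers (-0.38) were lower in the high set, and all 7 tendon markers (0.18) were higher. Their part in the results was not tested beyond the fit with marker scores. The summed adipocyte markers had medians of 278.1 in high and 313.6 in low animals on the linear scale, with 1 low animal at 1603. The blood markers had medians of 772 and 927, with 1 low animal at 25250. When the scores of these 9 lists entered the fit, 15 of the 23 genes passed, and the 8 slow genes described first were among them.

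Some animals broke the shared pattern. Animal 55 had the lowest Myh7 of all, 0.51, yet Tnni1 at 4.22 was the 10th highest of 92, Tnnc1 stood at 2.47 and Tnnt1 at 3.30. These lay 6.03, 5.82 and 3.64 residual SDs above their lines on Myh7, while Myl2 (1.37) and Myl3 (1.94) were low. Animal 56 had Myh7 at 4.90, above the median of 4.65, yet the lowest Tnnt1 (0.77), Tpm3 (2.86), Atp2a2 (5.35), Myoz2 (0.85), Csrp3 (0.27), Ankrd2 (1.21) and Casq2 (1.54) of all 92. The opposite departures thus fell on animals with neighbouring title numbers, and their cause was not tested. Over the 8 genes and 92 animals, 10 of 736 residuals exceeded 3 SDs, all in these 2 animals.

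Another animal, 260 in the high set, was picked after its values were seen, because it shared a feature with animal 55. It had Myh7 at 6.12 and the second highest Tnni1, 5.49. Animals 260 and 55 held the highest and second highest values of Myl4 (5.95 and 4.70, median 1.24), Tnnt2 (5.83 and 4.52, median 0.83), the myogenic factor Myog (5.11 and 4.27, median 1.76) and Ncam1 (5.71 and 4.48, median 2.87). These genes are known from embryonic and regenerating fibres. Other genes of that kind did not single out the pair. Myh3 was highest in animal 260 (8.35) but 12th in animal 55 (5.90), Chrna1 was highest in 260 (5.98) and 3rd in 55, and Myh8 ranked 23rd and 13th. Animal 56 was also high in some of them, 4th in Tnnt2 and Chrna1, 5th in Ncam1 and 7th in Myh3. The same pair had the lowest values of Dysf, dysferlin, a protein of membrane repair whose loss causes muscular dystrophy, at 3.23 and 3.55 against a median of 7.05. The next lowest animals stood at 4.50 and 5.53, and animal 56 had the highest value, 7.93. Whether these levels bear on the slow troponins was not tested. Without animals 55, 56 and 260, a choice made after seeing the data, 19 genes passed between the sets, all among the 23, with Myh7b, Fhl2, Dusp18 and Fhl1 lost. The Tnni1 difference was then 4.08 and the Tnnc1 difference 4.35.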

How the data were processed

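RNA of the quadriceps from 92 DOz mice was analysed, 1 library per animal, from polyA libraries per the labels' protocols. The authors deposited 1 table of log2 values. Its unit was read from the values: 2 to the power of the values sums to 898071 to 1140761 per animal, so they are close to per-million, and division by length is not stated. The submitters' processing notes name bcl2fastq, MultiQC, kallisto 0.50.1, edgeR and build mm10, without their order. Read depth is unknown, and no interval needing counts was computed. After 15 identical repeated lines were removed, 13441 genes remained, of which 13255 matched GENCODE M21 (GRCm38, the build mm10). The table reaches a floor near -3.8 in 0.0631% of values.

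Animals were ranked by Myh7 and compared with limma 3.58.1 in R 4.3.3 on the deposited values (pseudocount 0, empirical Bayes with trend, two-sided, Benjamini-Hochberg over 13440 genes, threshold 0.05), as 23 against 23, as a slope over 92 and as a slope over the 46 between. The p-values take the animals as independent. Labels do not say how animals are related, so this could not be checked. Fast myosin shares were compared by permutation with 100000 resamples. Fits were also run on simulated independent normal values, with the outcome not given here. Such values cannot show the effect of errors that genes of a library share. Lists held 357 genes, 343 of them in the table, and are described by counts and medians. The Myh7 sets, lists and tests were chosen with earlier results of these data known. Named were members of the lists, up to 12 rising and 12 falling genes outside them with a mean of at least 1, called in both fits and with the largest differences, and the 10 genes most like Myh7. Alternatives were other covariates, filters, scales and set sizes. Marker scores are means of standardised marker genes. Sequences are from RefSeq (GRCm38.p6), and shared 31-base words were counted in GENCODE M21 transcripts.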

Additional observations from a re-analysis of the deposited data

How the results depend on the processing

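Across 11 alternatives of the contrast between high and low animals, 14 of the 23 genes were called every time they were tested: Tnnc1, Tnni1, Myh6, Tnnt1, Myl2, Myl3, Tpm3, Atp2a2, Lgi1, Myoz2, Rspo3, Gm5532, Idh2 and Smtnl1 (Rspo3 was left out by the filter on a mean of at least 1). The count of called genes was 15 with the title-number runs as a covariate and 15 with marker scores as covariates, in both cases all among the 23, and the cause was not tested. The other 9 alternatives gave 19 to 29 genes, the last with 15 animals against 15, where 2 fell. The slope over 92 animals gave 20 to 30 genes, and the slope over the 46 between gave 6 or 7. No gene printed with its own difference reversed its direction in these alternatives. The Myh4 share differed by -2.29 points within title-number runs (adjusted permutation p = 0.0537), where its call was lost, and by -3.11 to -2.08 points in the other alternatives, with adjusted p under 0.05. Casq2, Lmod2, Ankrd2 and Myom3 passed with 15 animals against 15 (limma adjusted p = 0.013, 0.0388, 0.00417 and 0.0348), and Myom3 also with 31 against 31 (limma adjusted p = 0.036). No paired analysis was possible because the labels give 1 group only. With unknown depth, small differences of weakly expressed genes near the floor cannot be judged.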

Other observations

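The largest negative difference of all genes belonged to Ighm, the heavy chain of immunoglobulin M and a marker of B cells, and was noted after its values were seen. It averaged 7.97 ± 0.77 (SD, n = 23) in the low and 6.70 ± 1.31 (SD, n = 23) in the high Myh7 animals, a difference of -1.27 ± 0.30 (SE) that did not pass (limma adjusted p = 0.0664). Its slope among the 46 animals between was positive at 0.21 (limma adjusted p = 0.999).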
